A study of Mus musculus with 64 samples.

Results

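Glucocorticoid signalling was followed through 10 genes: the 2 receptors Nr3c1 and Nr3c2 and 8 genes known to respond to them, Fkbp5, Tsc22d3, Zbtb16, Errfi1, Plin4, Pdk4, Sult1a1 and Mt1. The members were chosen by gene name in the deposited transcript tables, which hold 42 of their transcripts among 112714 in all and 10 of 46785 genes. Their levels were read in the nucleus accumbens (NAc) and the prefrontal cortex (PFCx) of mice given 1 of 6 psychotropic drugs or saline. A level is given in FPKM, fragments scaled to transcript length and to the mapped fragments of the library, summed over the transcripts of a gene, and is therefore scaled to length and can be compared between genes.

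Corticosteroids reach the brain from the adrenal gland and bind the glucocorticoid receptor, the product of Nr3c1, and the mineralocorticoid receptor, the product of Nr3c2. The receptors wait in a complex with heat shock proteins and co-chaperones, move to the nucleus when the hormone binds, and act on transcription at palindromic response elements. In brain tissue the genes that answer quickly include chaperone feedback genes, transcription regulators and genes of lipid, glucose and metal handling, many of them strongly expressed in glia and vascular cells.

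Adult male C57BL/6N mice of 8 to 10 weeks received a single intraperitoneal injection, and the tissues were taken 2 h later. The doses were 1 mg/kg of haloperidol and 0.5 mg/kg of risperidone, antipsychotics that block dopamine receptors, 2 mg/kg of the psychostimulant methamphetamine, 16 mg/kg of the antidepressant venlafaxine, 20 mg/kg of the antidepressant mianserin and 20 mg/kg of ketamine, a blocker of NMDA receptors. Drugs were dissolved in saline, with a drop of HCl for haloperidol and risperidone, and the titles of the saline libraries carry the numerals I or II, here saline set I and saline set II. Each drug was represented by 4 libraries in each tissue and saline by 8, 4 from each set, which gives 64 libraries in all. The tissues were cut from brain slices with needles, so neighbouring tissue can be included, and the labels do not tie NAc and PFCx libraries to the same animals. Nothing in the labels says that the libraries of a group came from separate animals, so the p-values measure only the spread between these libraries.

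The depth of a library, estimated from the ratio of read coverage to FPKM, was 1.523 to 3.263 gigabases of aligned sequence. In the NAc the libraries fell apart by how many transcripts had a value over 0, which split them into 2 sample sets, 85287 to 87827 transcripts with haloperidol, risperidone, methamphetamine and saline set I (sample set I) and 107099 to 110556 with mianserin, venlafaxine, ketamine and saline set II (sample set II). The labels do not say to which saline set a drug belongs, so it was read from this technical split, each drug going with the saline set of like number. In the PFCx this number was 108556 to 110852 in all libraries and shows no split, and the assignment from the NAc was used there too. Saline set II differed from saline set I for 24.7% of the 37034 tested genes in NAc and 9.2% in PFCx, so every drug is compared both with all 8 saline libraries and with the 4 of its own sample set. Of the members, Mt1 was called between the saline sets in each tissue and no other member was. Markers of the NAc (Drd1, Drd2, Adora2a, Ppp1r1b) summed to 149 to 287 FPKM in the NAc and 8.96 to 32 in the PFCx, and markers of cortex (Slc17a7, Tbr1, Neurod6, Neurod2) to 19.2 to 77.1 and 137 to 203, so each list was higher in every library of its own tissue. None of these markers was at 0 in any group. Nr3c2, Fkbp5, Errfi1, Plin4 and Sult1a1 each overlap another annotated gene, and the strand setting of the quantification was not given in the sources used here, so part of their reads could come from the other gene.

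The start regions of 4 members are shown to set side by side members whose window holds, or does not hold, the letters of a steroid or metal response element. They come from RefSeq on GRCm38.p6, 250 bases before to 50 bases after the start, 5′ to 3′ on the strand of the gene. Capitals mark hexamers of the glucocorticoid response element (TGTTCT or AGAACA), the palindrome of the hexamers AGAACA and TGTTCT 3 bases apart with at most 2 mismatches in its 12 fixed letters, and the metal response core TGCACNC or TGCGCNC, each searched on both strands. The palindrome overlaps the hexamers by construction. Fkbp5 is chr17:28486100-28486399 on the minus strand, Tsc22d3 is chrX:140542619-140542918 on the minus strand, Sult1a1 is chr7:126676369-126676668 on the minus strand and Mt1 is chr8:94178839-94179138 on the plus strand.
Fkbp5: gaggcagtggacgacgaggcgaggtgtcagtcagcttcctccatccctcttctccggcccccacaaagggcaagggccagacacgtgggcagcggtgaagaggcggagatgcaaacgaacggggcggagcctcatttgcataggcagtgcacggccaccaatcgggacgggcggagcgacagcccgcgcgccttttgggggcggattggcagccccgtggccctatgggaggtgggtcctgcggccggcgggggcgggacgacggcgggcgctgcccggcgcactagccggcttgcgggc
Tsc22d3: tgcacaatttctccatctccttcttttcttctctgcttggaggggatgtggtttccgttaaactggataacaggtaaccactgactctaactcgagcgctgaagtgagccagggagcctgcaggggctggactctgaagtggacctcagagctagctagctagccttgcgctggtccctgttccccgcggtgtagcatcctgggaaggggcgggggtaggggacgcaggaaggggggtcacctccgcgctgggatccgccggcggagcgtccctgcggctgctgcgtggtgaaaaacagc
Sult1a1: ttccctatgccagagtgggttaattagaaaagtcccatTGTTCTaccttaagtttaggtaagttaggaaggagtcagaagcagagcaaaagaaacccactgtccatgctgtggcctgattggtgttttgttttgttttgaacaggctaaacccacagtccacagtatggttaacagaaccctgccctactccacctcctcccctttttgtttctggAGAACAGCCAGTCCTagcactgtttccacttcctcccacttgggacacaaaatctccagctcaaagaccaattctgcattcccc
Mt1: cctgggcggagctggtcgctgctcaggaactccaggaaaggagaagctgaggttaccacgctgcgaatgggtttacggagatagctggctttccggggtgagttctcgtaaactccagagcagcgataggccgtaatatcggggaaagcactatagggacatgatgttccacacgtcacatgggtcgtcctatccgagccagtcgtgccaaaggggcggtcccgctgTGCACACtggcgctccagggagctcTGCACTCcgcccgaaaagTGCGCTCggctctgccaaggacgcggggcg

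Fkbp5 and this window of Tsc22d3 held none of the motifs. Sult1a1 held 2 hexamers, at bases 39 to 44 and 217 to 222, the second of which opens a palindrome with 2 mismatches that ends at base 231. Mt1 held 3 metal response cores, at bases 228 to 234, 253 to 259 and 271 to 277. The start of the Fkbp5 window is that of its most abundant transcript, whereas the most abundant Tsc22d3 transcript begins upstream of the window shown. Among the 11 windows of 8 members, a hexamer was present in 2 members (Sult1a1 and another start of Tsc22d3), the palindrome in 1 and a metal response core in 2 (Mt1 and Nr3c2). Of all 32851 windows of this length, 19.0% held a hexamer, 1.84% the palindrome and 25.7% a metal response core. A match is a string of letters and not a known binding site, and distant elements lie outside these windows. Zbtb16 has no entry in the table.

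The first comparison asked which members passed a strict test for a change with any drug. In the NAc, Fkbp5, Tsc22d3 and Zbtb16 did, and in the PFCx Tsc22d3 alone passed. The test was limma's moderated F statistic over the 6 drugs against the 8 saline libraries on log2(FPKM + 1), at an adjusted p under 0.0001, which 0.815% of all genes passed in NAc and 0.13% in PFCx. The adjusted p was 1.95e-06 for Fkbp5, 2.34e-06 for Tsc22d3 and 2.05e-06 for Zbtb16 in the NAc and 2.85e-06 for Tsc22d3 in the PFCx. With each drug set against its own saline set the same 4 passed again, at 1.92e-06, 4.25e-06, 4.57e-05 and 2.93e-06. Against the 8 saline libraries 7 members in NAc and 4 in PFCx were under 0.05 in this F test. The share of all genes was not counted there. Next in the NAc came Plin4 (1.97e-04), Mt1 (3.34e-04) and Errfi1 (4.69e-04), and in the PFCx Mt1 (0.00575), Fkbp5 (0.009) and Errfi1 (0.011). With the own saline sets Mt1 was at 0.819 and 0.439. Of the 10 members, 3 were in the study's own list of drug-regulated transcripts, picked from these same libraries. The counts of called members here and below are therefore not independent evidence, also where set beside the share of all genes. Because these are bulk samples, fewer cells of a type and less RNA per cell cannot be told apart in any of the differences.

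**Figure D1:**
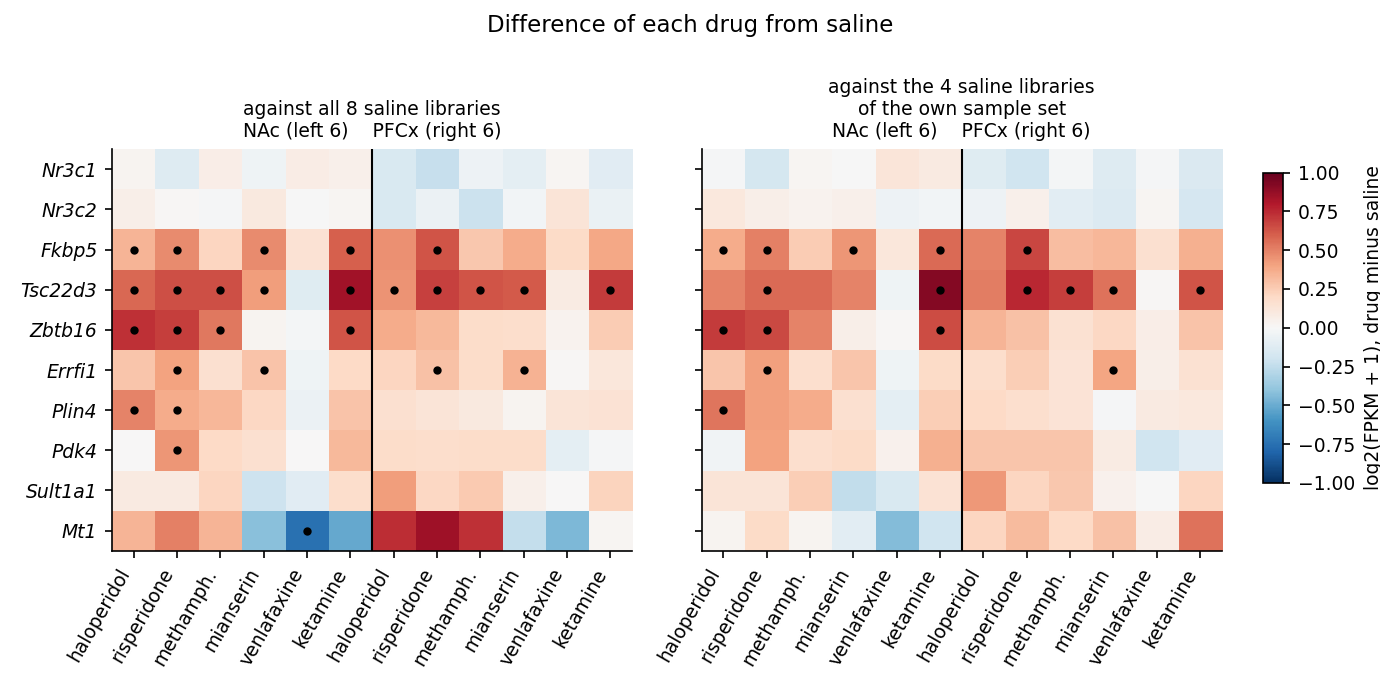
Difference of each drug from saline for the 10 members, in log2(FPKM + 1), against all 8 saline libraries (left) and against the 4 of the own sample set (right). The first 6 columns of each panel are the NAc and the last 6 the PFCx; red is higher after the drug, blue lower, and a black point marks an adjusted p under 0.05, 19 and 8 points on the left and 11 and 6 on the right.

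Drug by drug, 18 member and drug pairs were higher and 1 was lower in the NAc, each at an adjusted p under 0.05 in limma over all genes. Risperidone raised 6 of the 10 members, Fkbp5, Tsc22d3, Zbtb16, Errfi1, Plin4 and Pdk4, where 0.729% of all genes were called, and 4 of the 6 against its own saline set, where 0.213% were. Haloperidol raised 4, Fkbp5, Tsc22d3, Zbtb16 and Plin4 (0.721% of all genes), and 3 against its own set, without Tsc22d3 (0.235%). After ketamine 3 rose, Fkbp5, Tsc22d3 and Zbtb16 (1.97%), and the same 3 rose against its own set (0.967%). After mianserin 3 rose, Fkbp5, Tsc22d3 and Errfi1 (1.84%), and only Fkbp5 against its own set (0.273%). Methamphetamine raised Tsc22d3 and Zbtb16 (0.194%) and none against its own set (0.0891%), where 4 members had an unadjusted p under 0.05. Venlafaxine raised none and lowered Mt1 (1.83%), and against its own set it changed none (0.0081%), with 1 member at an unadjusted p under 0.05. The median difference of the 10 members from the 8 saline libraries, in log2(FPKM + 1), was 0.42 after risperidone, 0.31 after haloperidol, 0.24 after ketamine, 0.22 after methamphetamine, 0.13 after mianserin and -0.03 after venlafaxine. Against the own saline set, in the same order of drugs, it was 0.41, 0.20, 0.22, 0.21, 0.11 and -0.04. The median of all genes against the 8 saline libraries was -0.0479 to -0.0456 after the drugs of sample set I and 0.0419 to 0.0549 after those of set II. The drugs share their saline libraries, so these values are not independent of each other.

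In the PFCx 8 pairs were called and all were higher. Tsc22d3 rose with every drug but venlafaxine. Risperidone raised 3 members, Fkbp5, Tsc22d3 and Errfi1 (0.51% of all genes), and 2 against its own set, Fkbp5 and Tsc22d3 (0.162%). Mianserin raised 2, Tsc22d3 and Errfi1 (0.667%), and the same 2 against its own set (2.01%). Tsc22d3 was the single member called after methamphetamine, at a background of 0.351% against all saline libraries and 0.159% against the own set, and after ketamine, at 0.0162% and 1.51%. Haloperidol raised Tsc22d3 (0.162%), and against its own set no member was called (0.0216%), with 7 members at an unadjusted p under 0.05. After venlafaxine none of the 10 was called in limma, at a background of 0.0054% and 0.74%, and 1 and 0 members had an unadjusted p under 0.05. The median differences of the 10 members from the 8 saline libraries were 0.29 after haloperidol, 0.25 after risperidone, 0.18 after methamphetamine, 0.13 after ketamine, 0.11 after mianserin and 0.03 after venlafaxine on the log2 scale. Against the own saline set, in the same order of drugs, they were 0.25, 0.26, 0.18, 0.19, 0.14 and 0.04.

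The receptors themselves were not called with any drug in either tissue. Nr3c1 ranged over 9.37 to 13.0 FPKM in the 32 NAc libraries and 9.90 to 15.2 in the PFCx, and each drug group overlapped saline except ketamine in the PFCx. There the 4 ketamine libraries held 11.5, 11.9, 12 and 12.1 FPKM and the 8 saline libraries 12.1 to 13.8, with a median of 12.8. They lay just below all 8 saline libraries, a difference of -0.11 ± 0.07 (SE) in log2(FPKM + 1) with an adjusted p of 0.713 in limma and 0.00606 in a two-sided exact permutation test, not adjusted for the 120 pairs of a member, a drug and a tissue. After ketamine 0.548% of all genes lay wholly below saline in the PFCx. The largest difference of Nr3c1 from the 8 saline libraries was after risperidone in the PFCx, 10.9 ± 1.43 FPKM (SD, n = 4) against 12.9 ± 0.558 (n = 8), or -0.23 on the log2 scale with a 95% interval of -0.38 to -0.08 and an adjusted p of 0.136.

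Nr3c2 (chr8:76899442-77245012, plus strand) held 8.61 to 12.6 FPKM in the NAc and 4.52 to 7.69 in the PFCx. Every NAc library was above every PFCx library, and after saline the NAc was higher by 0.65 ± 0.07 (SE) in log2(FPKM + 1) at an adjusted p of 2.05e-06. Against the 8 saline libraries the drug difference of Nr3c2 was largest in size after methamphetamine in the PFCx (-0.21 on the log2 scale, 95% interval -0.37 to -0.06, adjusted p = 0.359). Against the 8 saline libraries, the 95% intervals of the receptors reached down to -0.38 for Nr3c1 and -0.37 for Nr3c2 on the log2 scale. They reached up to 0.22 and 0.29. The lower limits belong to the intervals given above for risperidone and methamphetamine in the PFCx, which do not include a difference of 0. Those differences missed the threshold after adjustment over all genes, so the lack of a call does not show that the receptors were unchanged.

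Fkbp5 (chr17:28399094-28517527, minus strand) encodes a co-chaperone that lowers the affinity of the receptor for its hormone and so closes a feedback loop. In the NAc the 8 saline libraries held 4.78 to 5.70 FPKM with a median of 5.22. Ketamine gave 8.04, 8.22, 8.45 and 9.07 FPKM, mianserin 6.82, 7.44, 8.08 and 8.35, risperidone 6.76, 7.78, 8.11 and 8.16, and haloperidol 6.41, 6.89, 6.96 and 7.44. All 16 of these libraries lay above all 8 saline libraries. After these drugs 1.38%, 1.18%, 0.626% and 0.718% of all genes lay wholly above saline in the NAc. Methamphetamine (5.68, 5.94, 6.68 and 6.84 FPKM) and venlafaxine (5.05, 5.73, 6.11 and 6.78) reached into the saline range.

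The mean of Fkbp5 in the NAc was 1.61 times saline after ketamine, 1.47 times after risperidone, 1.46 times after mianserin and 1.32 times after haloperidol. In log2(FPKM + 1) the differences were 0.60, 0.48, 0.47 and 0.34, each with an SE of 0.06, at adjusted p values of 4.95e-06, 9.15e-05, 1.11e-04 and 0.00452. Against the own saline set they were 0.56, 0.51, 0.44 and 0.37, and all 4 passed at 1.39e-05, 7.16e-04, 0.0026 and 0.015. The exact permutation p was 0.00202 for each against 8 saline libraries, the smallest that 4 against 8 libraries allow. Methamphetamine differed by 0.22 (95% interval 0.09 to 0.35) at an adjusted p of 0.2 and venlafaxine by 0.14 (0.01 to 0.27) at 0.189. None of the 4 calls was lost when a library was left out.

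In the PFCx the Fkbp5 levels after saline were 3.35 to 4.96 FPKM with a median of 3.97. Risperidone gave 6.10, 6.17, 7.37 and 8.05 FPKM, all above saline, and a mean of 1.68 times saline. The difference was 0.63 ± 0.11 (SE) on the log2 scale at an adjusted p of 0.00278, and 0.67 at 0.0156 against saline set I. Ketamine (4.96, 5.38, 6.0 and 6.48 FPKM) lay just above saline with a difference of 0.39, and haloperidol (4.91, 5.78, 5.95 and 7.59) overlapped it with 0.46. Both missed the threshold, at adjusted p values of 0.312 and 0.0853. In the PFCx 0.794% of all genes lay wholly above saline after risperidone and 0.2% after ketamine. The SD over the 8 saline libraries was 0.626 FPKM in the PFCx and 0.327 in the NAc.

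**Figure D2:**
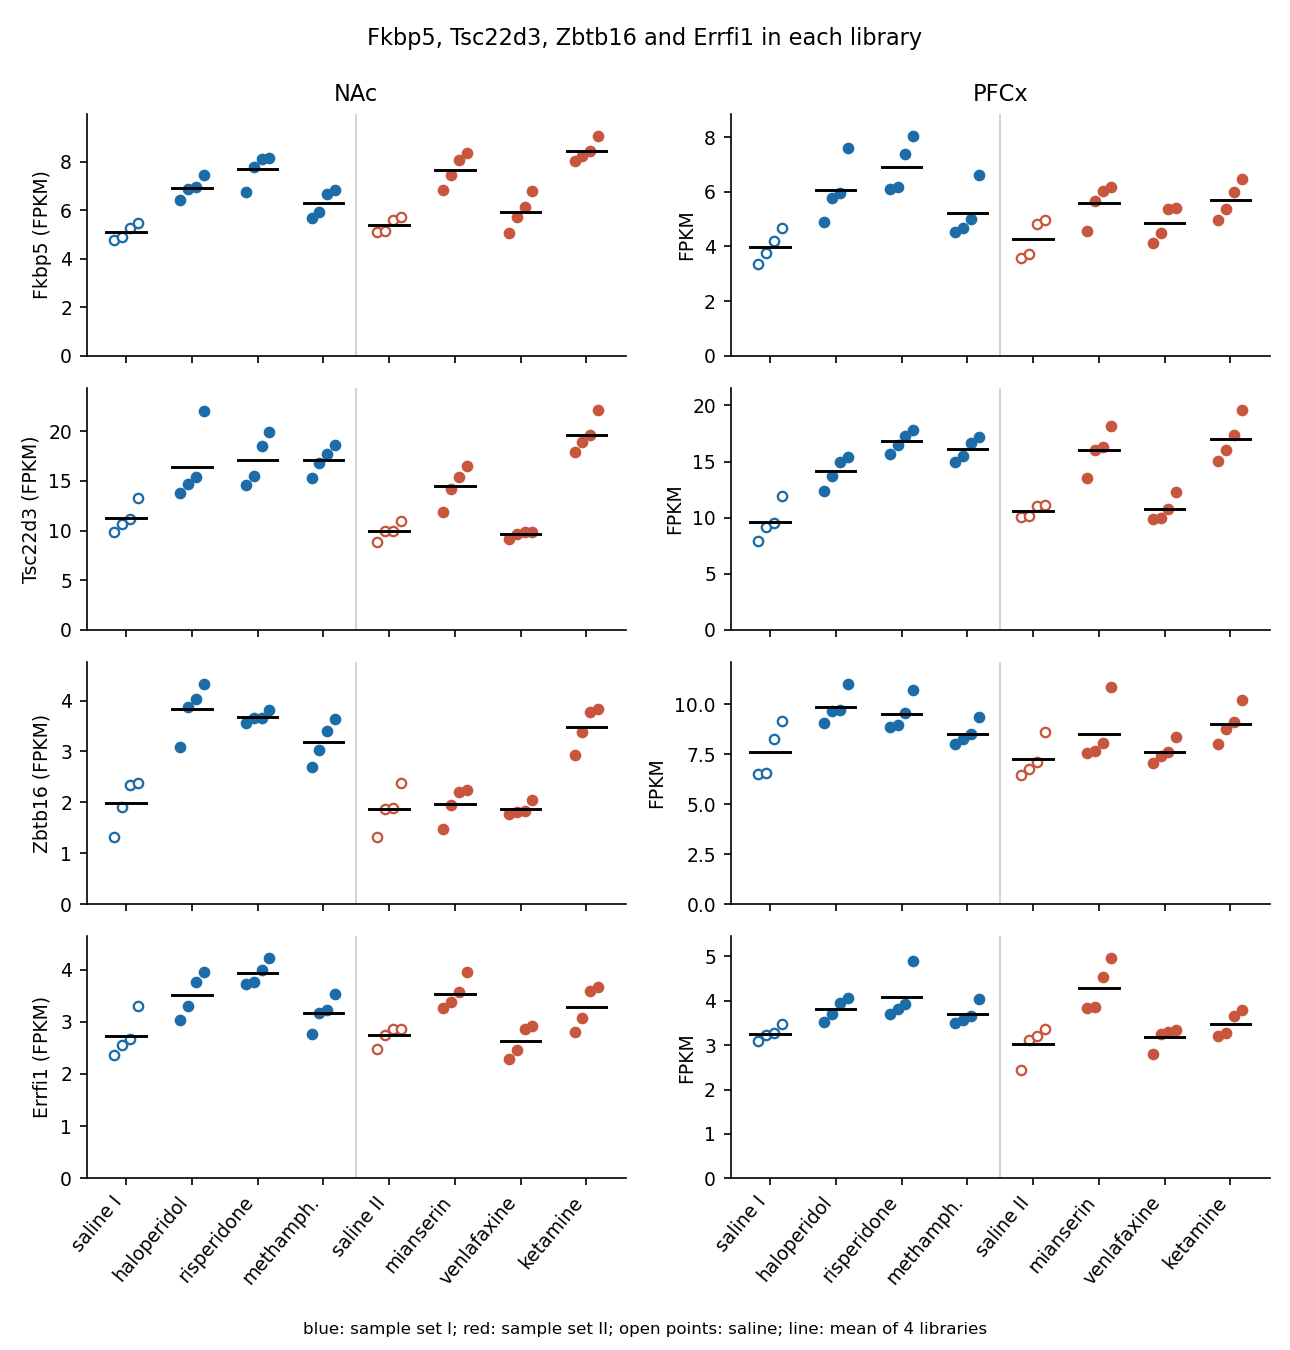
FPKM of Fkbp5, Tsc22d3, Zbtb16 and Errfi1 in each of the 32 libraries of the NAc (left) and PFCx (right), grouped by treatment and sample set; each point is 1 library and the line is the mean of 4. Fkbp5 in the NAc is above saline in all libraries of haloperidol, risperidone, mianserin and ketamine, while Zbtb16 in the NAc after mianserin (1.48 to 2.24) lies within the range of saline (1.31 to 2.39).

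Tsc22d3 (chrX:140539528-140600659, minus strand) encodes GILZ, a leucine zipper protein that carries part of the anti-inflammatory action of glucocorticoids. It changed in both tissues. In the NAc saline gave 8.88 to 13.3 FPKM with a median of 10.3. The libraries after ketamine held 17.9, 18.9, 19.6 and 22.1 FPKM, after methamphetamine 15.3, 16.8, 17.7 and 18.6, after risperidone 14.6, 15.5, 18.5 and 19.9 and after haloperidol 13.8, 14.6, 15.4 and 22.0. All of these were above every saline library. After these drugs 1.38%, 0.381%, 0.626% and 0.718% of all genes lay wholly above saline in the NAc. Mianserin gave 11.9, 14.2, 15.4 and 16.5 FPKM, of which the lowest lay within saline, and venlafaxine 9.13, 9.63, 9.84 and 9.86, all within saline.

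The ketamine mean of Tsc22d3 in the NAc was 1.86 times that of saline, the highest of the 6 drugs, and the difference was 0.84 ± 0.10 (SE) in log2(FPKM + 1) at an adjusted p of 4.43e-05. Methamphetamine, risperidone, haloperidol and mianserin differed by 0.65, 0.64, 0.58 and 0.42, at 0.00188, 0.00104, 0.00308 and 0.0348. Against the own saline set ketamine (0.91, adjusted p = 1.35e-05) and risperidone (0.56, 0.033) stayed called. Methamphetamine (0.57, 0.0507), mianserin (0.50, 0.0669) and haloperidol (0.50, 0.0807) did not, although all 4 libraries of each lay above the 4 of that saline set. The share of all genes that lay wholly above that set was 1.33%, 2.28% and 1.54% after these drugs. The mianserin call was lost without mianserin replicate 1, 2 or 4 or without saline set I replicate 1, 2 or 4, at adjusted p values of 0.0955, 0.0841, 0.0811, 0.0673, 0.0504 and 0.0571.

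In the PFCx saline gave 7.95 to 11.9 FPKM of Tsc22d3 with a median of 10.1. Risperidone gave 15.7, 16.5, 17.3 and 17.8 FPKM, ketamine 15.1, 16, 17.3 and 19.6, methamphetamine 15, 15.5, 16.6 and 17.2, mianserin 13.5, 16.1, 16.3 and 18.1, and haloperidol 12.4, 13.7, 15 and 15.4. The 20 libraries of these 5 drugs were all above the 8 of saline, and venlafaxine (9.85 to 12.3) overlapped saline. After the 5 drugs, in this order, 0.794%, 0.2%, 0.505%, 0.57% and 0.562% of all genes lay wholly above saline. The means of Tsc22d3 were 1.68 times saline after ketamine, 1.66 after risperidone, 1.59 after methamphetamine, 1.58 after mianserin and 1.39 after haloperidol.

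On the log2 scale these differences of Tsc22d3 in the PFCx were 0.70, 0.69, 0.63, 0.61 and 0.45, each with an SE of 0.09, at adjusted p values of 3.26e-04, 4.27e-05, 1.82e-04, 1.14e-04 and 0.0281. Against the own saline set the first 4 stayed called, at 0.00162, 2.92e-04, 4.04e-04 and 0.00254. Haloperidol gave 0.51 at an adjusted p of 0.0528, and its call against 8 saline libraries was lost without haloperidol replicate 1 (0.142), 2 (0.129) or 3 (0.0593) or saline set II replicate 2 (0.0501). After venlafaxine the difference was 0.08 with a 95% interval of -0.10 to 0.26 in the PFCx and -0.12 (-0.33 to 0.09) in the NAc.

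Of the 6 annotated Tsc22d3 transcripts, the short protein-coding ENSMUST00000055738 (chrX:140539528-140543187, 1974 bases in 3 exons) held a median of 55.4% of the FPKM of the gene in NAc and 54.6% in PFCx. In the PFCx it rose from a mean of 4.57 ± 0.719 FPKM (SD, n = 8) after saline to 11.4 after methamphetamine, 11.1 after ketamine, 10.4 after risperidone, 8.89 after mianserin and 8.41 after haloperidol, with 4.93 after venlafaxine. The differences of the 5 called drugs were 1.16, 1.1, 1.02, 0.82 and 0.77 in log2(FPKM + 1), at adjusted p values over 86331 transcripts of 1.86e-05, 3.07e-04, 2.2e-04, 0.00117 and 0.0336. In the NAc it was called after ketamine (11.5 FPKM, difference 0.96, adjusted p = 0.00948) and risperidone (11.1, 0.90, 0.0158) against 5.48 ± 0.833 after saline. The long transcript ENSMUST00000112996 (chrX:140540262-140600659) had a mean of 0.477 FPKM in NAc and 0.415 in PFCx and was not called with any drug.

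**Figure D3:**
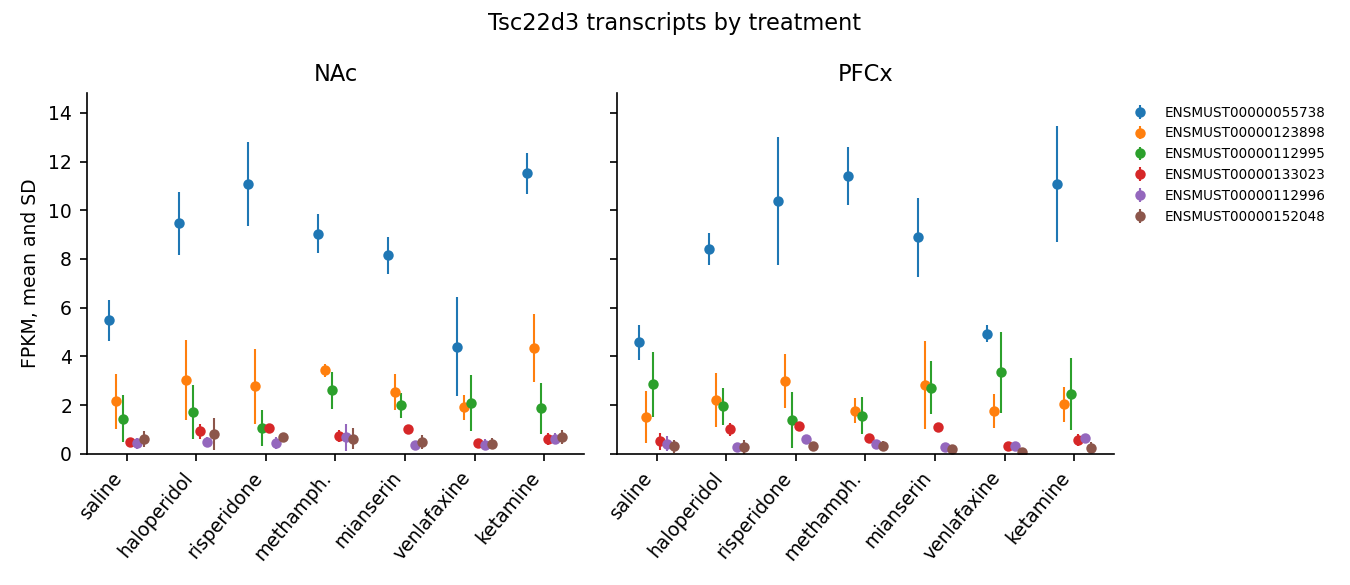
Mean FPKM and SD of the 6 Tsc22d3 transcripts in each treatment group (8 libraries for saline, 4 for each drug) of the NAc (left) and PFCx (right). The blue points, ENSMUST00000055738, stand at 4.57 FPKM after saline and 11.4 after methamphetamine in the PFCx, and the other 5 transcripts stay below 5 FPKM in mean.

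Over all 41 tested transcripts of the members, ENSMUST00000055738 of Tsc22d3 in the PFCx (F test, adjusted p = 3.34e-06) and ENSMUST00000093852, the 1 annotated transcript of Zbtb16, in the NAc (9.9e-06) passed the threshold of 0.0001. Of all transcripts 0.12% passed in NAc and 0.0336% in PFCx. At an adjusted p under 0.05, 8 member transcripts passed in NAc and 4 in PFCx. The share of all transcripts at 0.05 was not counted, so these counts are no result about the members. ENSMUST00000079413, which held a median of 86.9% of the Fkbp5 FPKM in NAc and 67.3% in PFCx, was among them in both tissues, at 2.79e-04 and 3.93e-04. Mianserin raised a shorter Fkbp5 transcript in the NAc, ENSMUST00000153744, to 1.11 ± 0.195 FPKM (difference 0.96, adjusted p = 0.00136, 0.0208 against its own set). After mianserin ENSMUST00000079413 in the NAc was 5.55 ± 0.808 FPKM against 4.63 ± 0.302 after saline, at an adjusted p of 0.215. The FPKM of isoforms that share exons are estimated jointly, so an error in one passes to another.

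Zbtb16 (chr9:48654297-48836222, minus strand) encodes PLZF, a zinc finger repressor that glucocorticoids induce in many cells. Its rise was seen in the NAc and with 4 drugs. The 8 saline libraries held 1.31 to 2.39 FPKM with a median of 1.90. Haloperidol gave 3.08, 3.87, 4.02 and 4.32 FPKM, risperidone 3.56, 3.65, 3.66 and 3.81, ketamine 2.94, 3.39, 3.77 and 3.83, and methamphetamine 2.70, 3.03, 3.40 and 3.63. All 16 libraries lay above saline. After these drugs 0.718%, 0.626%, 1.38% and 0.381% of all genes lay wholly above saline in the NAc. Mianserin (1.48, 1.94, 2.21 and 2.24 FPKM) and venlafaxine (1.77, 1.81, 1.83 and 2.05) lay within the range of saline.

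The mean of Zbtb16 in the NAc was 1.99 times saline after haloperidol, 1.91 after risperidone, 1.81 after ketamine and 1.66 after methamphetamine. In log2(FPKM + 1) these were 0.73, 0.69, 0.63 and 0.53, each with an SE of 0.10, at adjusted p values of 5.6e-05, 2.06e-04, 8.62e-04 and 0.0119. Against the own saline set the first 3 stayed called, at 0.00184, 0.00575 and 0.00121, and methamphetamine did not (0.50, 0.119). The methamphetamine call was also lost without methamphetamine replicate 1 (adjusted p = 0.0678) or replicate 3 (0.0781).

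Ketamine and mianserin belong to the same sample set, and Zbtb16 in the NAc was higher after ketamine than after mianserin by 0.60 ± 0.11 (SE) in log2(FPKM + 1), with an adjusted p of 0.00431. This comparison was chosen after the values had been seen. Zbtb16 was the 1 member of 10 called between these drugs in the NAc, where 0.937% of all genes were, and 3 members had an unadjusted p under 0.05. Tsc22d3 was also higher after ketamine there, by 0.42 (95% interval 0.17 to 0.66) at an adjusted p of 0.101. Sult1a1 was higher by 0.39 (0.11 to 0.67) at 0.25. In the PFCx 0 of 10 were called (0.186%), and 1 had an unadjusted p under 0.05. Fkbp5 differed between ketamine and mianserin by 0.12 in the NAc (95% interval -0.02 to 0.27) and 0.02 in the PFCx (-0.23 to 0.28). Between the antipsychotics risperidone and haloperidol no member was called, in the NAc (0.0405% of all genes) or the PFCx (0%), with 2 and 1 members at an unadjusted p under 0.05. Pdk4 in the NAc had the largest such difference, 0.44 (0.21 to 0.67) higher after risperidone at an adjusted p of 0.272, and its groups did not overlap.

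Markers of other tissue and cells moved with part of this pattern. In the NAc the summed cortex markers, of tissue where Zbtb16 is abundant, were 40.3 to 70.4 FPKM after ketamine, 27.0 to 43.3 after mianserin and 19.2 to 40.8 in saline set II. The summed oligodendrocyte markers were 658 to 723 FPKM after ketamine, 539 to 566 after mianserin and 512 to 575 in saline set II. After haloperidol this sum was 646 to 712, after risperidone 594 to 690 and after methamphetamine 605 to 676. Each of these overlapped saline set I, at 617 to 703. In the PFCx, where Zbtb16 was more abundant, the oligodendrocyte sum after saline was 131 to 184 FPKM. In sample set I the cortex markers were 36.8 to 59.2 after risperidone and 47.0 to 64.2 after saline set I. After haloperidol they were 57.1 to 77.1 and after methamphetamine 33.3 to 69.3. The part of these cells in the Zbtb16 values was not tested.

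In the PFCx Zbtb16 was more abundant, 6.46 to 11 FPKM over the 32 libraries, and no drug was called. After saline the mean was 7.44 ± 1.08 FPKM (SD, n = 8) in the PFCx and 1.92 ± 0.438 in the NAc, a difference of -1.53 ± 0.10 (SE) on the log2 scale (NAc minus PFCx) with an adjusted p of 2.44e-09. The largest drug differences in the PFCx were 0.37 after haloperidol (9.86 ± 0.827 FPKM, adjusted p = 0.0862) and 0.33 after risperidone (9.54 ± 0.857, 0.0947). Against the 8 saline libraries the drug effect on Zbtb16 differed between the tissues in the model of 14 groups (interaction F over 6 drugs, adjusted p = 0.00984), as did that on Plin4 (0.00952). These were 2 of the 10 members, where 12.9% of all genes passed. With the own saline sets neither passed, at 0.268 and 0.236, and the members at an unadjusted p under 0.05 were 3.

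Errfi1 (chr4:150853919-150868892, plus strand) encodes MIG6, an inhibitor of the EGF receptor. In the NAc the 4 risperidone libraries held 3.73, 3.77, 4.00 and 4.22 FPKM and the 8 saline libraries 2.37 to 3.30, with a median of 2.71. Risperidone was above all saline libraries, by 0.40 ± 0.07 (SE) on the log2 scale at an adjusted p of 0.0021, and 0.0207 against saline set I. After risperidone 0.626% of all genes lay wholly above saline there. After mianserin the libraries held 3.26, 3.37, 3.56 and 3.96 FPKM, a difference of 0.28 at an adjusted p of 0.0349 and of 0.209 against saline set II. This call was lost without mianserin replicate 1 (0.0654), 2 (0.0505) or 4 (0.13) or saline set I replicate 1 (0.0712), 2 (0.0678) or 4 (0.0615).

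In the PFCx mianserin was the 1 drug after which Errfi1 was called against both controls. Its libraries held 3.84, 3.85, 4.53 and 4.96 FPKM and saline 2.43 to 3.47, with no overlap, where 0.57% of all genes lay wholly above saline. The difference was 0.35 ± 0.07 (SE) at an adjusted p of 0.00894 and 0.39 at 0.00669 against saline set II. It missed the threshold without mianserin replicate 2 (0.0557) or replicate 3 (0.0854). Risperidone (3.70, 3.81, 3.94 and 4.89 FPKM) differed by 0.29 at 0.0464, and by 0.25 at 0.39 against saline set I. Its call was lost without any 1 of the 4 risperidone libraries, at adjusted p values of 0.0588 to 0.223, or of the 4 of saline set II, at 0.0598 to 0.0771. Haloperidol (3.53 to 4.07 FPKM) and methamphetamine (3.51 to 4.05) were not called, although all their libraries lay above every saline library. Of all genes, 0.562% and 0.505% lay wholly above saline after these drugs.

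Plin4 and Pdk4 stand for metabolism. Plin4 (chr17:56100591-56109803, minus strand) encodes perilipin 4, a coat protein of lipid droplets. Haloperidol gave 1.4, 1.67, 1.67 and 1.91 FPKM in the NAc and saline 0.659 to 1.29 with a median of 0.879, so the groups did not overlap and the mean was 1.87 times saline. After haloperidol 0.718% of all genes lay wholly above saline there. The Plin4 difference was 0.50 ± 0.08 (SE) at an adjusted p of 0.00107, and 0.54 at 0.0044 against saline set I. Risperidone (1.08, 1.43, 1.53 and 1.75 FPKM) differed by 0.37 at 0.0236, and by 0.41 at 0.0604 against its own set. That call was lost without risperidone replicate 1 (0.125), 3 (0.0636) or 4 (0.0938). In the PFCx Plin4 ranged over 0.575 to 1.1 FPKM and was not called. Its haloperidol libraries there (0.879 to 1.03 FPKM) lay just above those of saline (0.575 to 0.872), as 0.562% of all genes did.

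Pdk4 (chr6:5483351-5496309, minus strand) encodes a kinase that inhibits pyruvate dehydrogenase and spares glucose. It was called after risperidone in the NAc, where the libraries held 1.65, 1.67, 1.80 and 1.92 FPKM against 0.605 to 1.57 after saline. The difference was 0.44 ± 0.10 (SE) at an adjusted p of 0.0255, and 0.41 at 0.199 against saline set I, and it was lost without any 1 of the 4 risperidone libraries, at 0.0588 to 0.0944, or without saline set II replicate 1, at 0.052. Ketamine (1.39, 1.54, 1.58 and 1.65 FPKM) had a difference of 0.32 at 0.0702. Haloperidol (0.790, 0.908, 1.07 and 1.4) overlapped saline, with a 95% interval of the difference of -0.20 to 0.20.

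Sult1a1 (chr7:126672865-126676432, minus strand), a phenol sulfotransferase, was called with no drug. It ranged over 0.938 to 2.93 FPKM in the NAc and 0.977 to 2.71 in the PFCx, and its 4 transcripts shared the reads unevenly, the leading one with a median share of 34.7% and 36.1%. Its largest rise and fall from the 8 saline libraries, neither of them called, were 0.42 after haloperidol in the PFCx (2.34 ± 0.314 FPKM against 1.52 ± 0.47, adjusted p = 0.145) and -0.21 after mianserin in the NAc (1.25 ± 0.287 against 1.59 ± 0.217, adjusted p = 0.313).

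Mt1 (chr8:94179082-94180327, plus strand), whose start region with its metal response cores is printed above, encodes a metallothionein, a small metal binding protein of glia that both zinc and glucocorticoids induce. Its level followed the sample set. In the NAc saline set I held 22.2, 29.1, 29.1 and 30.1 FPKM and saline set II 12.5, 16.1, 16.6 and 27.4. The PFCx values were 14.5, 15.6, 18.8 and 21.7 in saline set I and 5.64, 7.21, 8.50 and 10.9 in saline set II. The sets did not overlap in the PFCx and overlapped through 1 library of set II in the NAc.

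Saline set II was lower than saline set I by 1.05 ± 0.18 (SE) in log2(FPKM + 1) in the PFCx (-1.05, adjusted p = 2.02e-04) and by 0.63 ± 0.19 in the NAc (-0.63, adjusted p = 0.0176). Without NAc saline set II replicate 2 the NAc difference was -0.48 at an adjusted p of 0.0824. The drug libraries of set I held 24.5 to 32.4 FPKM in the NAc and 17.9 to 26.7 in the PFCx, and those of set II 8.83 to 19.7 and 6.99 to 14.9. Against the 8 saline libraries venlafaxine lowered Mt1 in the NAc, by -0.74 (8.83, 12.2, 13.3 and 17.8 FPKM, adjusted p = 0.0453), a call that was lost without venlafaxine replicate 1 (0.0756), 3 (0.227) or 4 (0.0848) or any 1 of the 4 libraries of saline set I (0.0868 to 0.0932). Against saline set II the difference was -0.43 at an adjusted p of 0.825, and no drug was called for Mt1 against its own set in either tissue. The astrocyte markers (Aqp4, Gfap, Aldh1l1, Slc1a3, Gja1) summed to 84.5 to 90.3 FPKM in NAc saline set I and 75.9 to 81.2 in saline set II, and in the PFCx to 77.2 to 99.6 and 76.0 to 88.0. Their part in the Mt1 values was not tested.

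**Figure D4:**
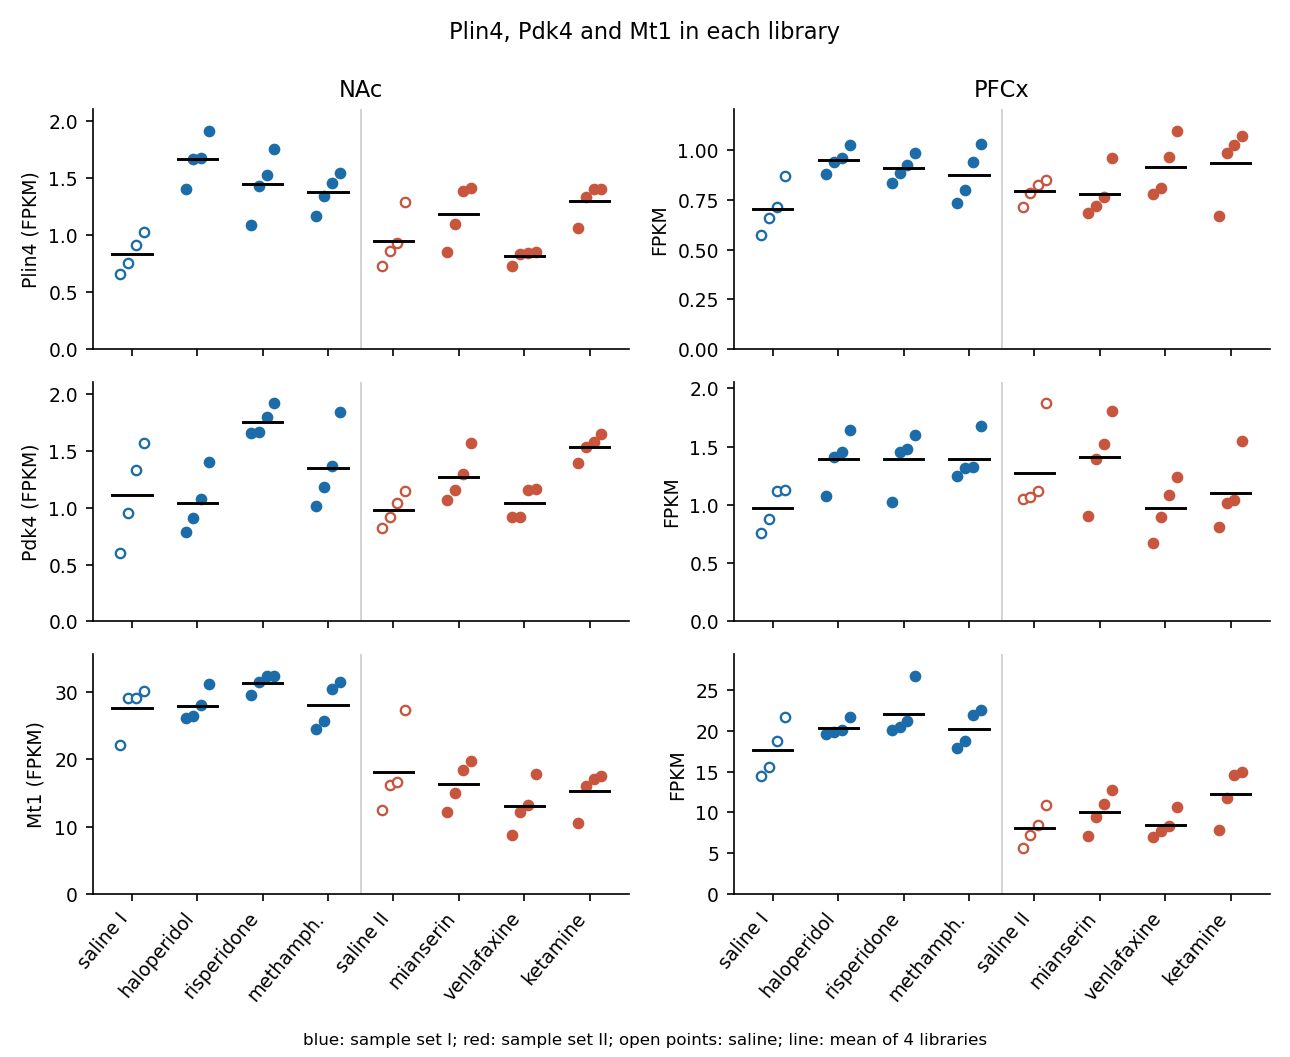
FPKM of Plin4, Pdk4 and Mt1 in each library of the NAc (left) and PFCx (right), by treatment and sample set; each point is 1 library and the line is the mean of 4. Mt1 in the PFCx is 14.5 to 26.7 in sample set I and 5.64 to 14.9 in sample set II, with or without drug.

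After saline 5 of the 10 members were called between NAc and PFCx, where 33.9% of all genes were, so the count by itself is no result about the members. Nr3c2, Fkbp5 and Mt1 were higher in the NAc and Nr3c1 and Zbtb16 in the PFCx. Fkbp5 averaged 5.25 ± 0.327 FPKM in the NAc and 4.13 ± 0.626 in the PFCx (difference 0.29 ± 0.07 SE, adjusted p = 0.00371), and Mt1 22.9 ± 7.0 and 12.8 ± 5.73 (0.84 ± 0.26, 0.0197). Nr3c1 averaged 11.4 ± 1.08 and 12.9 ± 0.558 FPKM (-0.17 ± 0.05, 0.024). The median of all genes was itself -0.105 between the tissues on this scale, in the same direction as Nr3c1. Nr3c1 was called in neither saline set alone, with -0.09 at an adjusted p of 0.225 in saline set I and -0.24 at 0.081 in saline set II. Fkbp5 was called in saline set I (0.30, 0.0332) and not in saline set II (0.29, 0.0762), so 3 of the 10 members were called with saline set II alone.

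In order of their mean level after saline, the NAc read Mt1, Nr3c1, Tsc22d3, Nr3c2, Fkbp5, Errfi1, Zbtb16, Sult1a1, Pdk4 and Plin4. Only Fkbp5 (4.78 to 5.70 FPKM) had a range separate from both its neighbours in this order, Nr3c2 (8.80 to 10.9) and Errfi1 (2.37 to 3.30), and all other neighbours overlapped. The PFCx order was Nr3c1, Mt1, Tsc22d3, Zbtb16, Nr3c2, Fkbp5, Errfi1, Sult1a1, Pdk4 and Plin4. There the ranges of Errfi1 (2.43 to 3.47 FPKM) and Sult1a1 (0.977 to 2.22) were separate and all other neighbours overlapped.

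**Figure D5:**
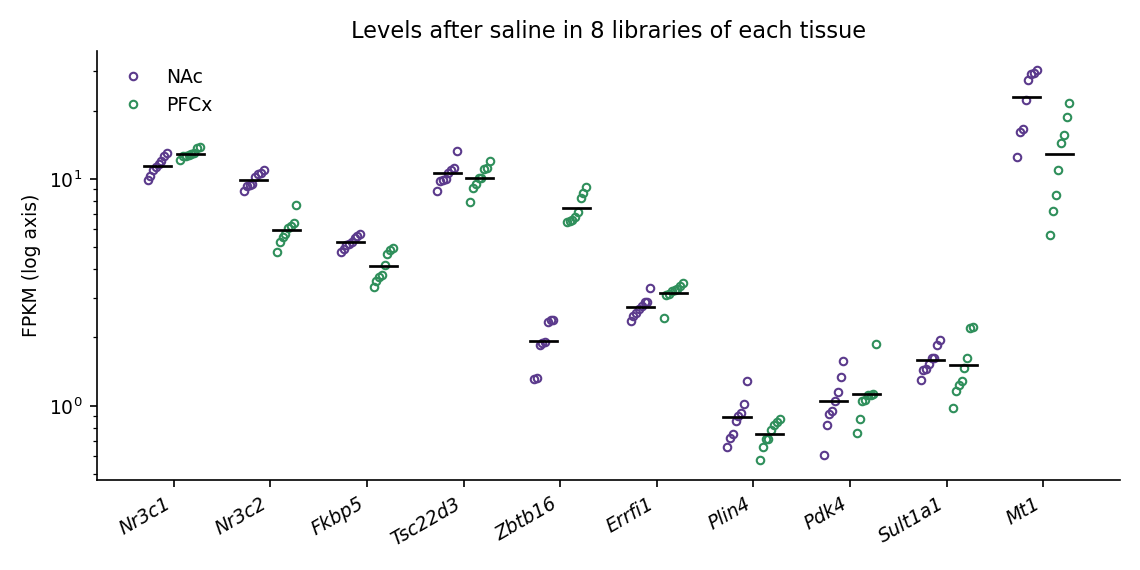
FPKM of the 10 members in the 8 saline libraries of the NAc (purple) and the PFCx (green), on a log axis; each circle is 1 library and the line is the mean. Nr3c2 (mean 9.90 in NAc and 5.96 in PFCx) and Zbtb16 (1.92 and 7.44) do not overlap between the tissues.

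A list of 20 other glucocorticoid-responsive genes was read beside the members. In the NAc 9 passed the F test at 0.0001, with the lowest adjusted p for Sgk1 (7.78e-10), a kinase of ion transport, Dusp1 (1.3e-07), a phosphatase of MAP kinases, Ddit4 (3.72e-07), an inhibitor of mTOR, Nfkbia (4.28e-07), an inhibitor of NF-kappaB, Cdkn1a (1.95e-06) and Klf9 (2.17e-06). In the PFCx 5 passed, Sgk1 (2.87e-07), Tiparp (4.44e-07), Dusp1 (1.3e-06), Ddit4 (2.85e-06) and Nfkbia (1.65e-05), and Cebpd, a transcription factor, came next at 0.00214. Of the 20 genes, 8 were, like 3 of the 10 members, picked by the study from these same libraries. Neither the count of called genes nor their direction is therefore independent evidence. In single drugs, 39 of 120 pairs of a gene and a drug were called in NAc and 27 in PFCx, all higher, and 24 and 19 against the own saline set.

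Drug by drug the counts were as follows, and their difference from those of the members was not tested. Mianserin raised 9 of the 20 in the NAc (1.84% of all genes) and 5 against its own saline set (0.273%), and in the PFCx 11 (0.667%) and 11 (2.01%). In the NAc Zbtb16 stayed within the saline range after both mianserin and venlafaxine. After mianserin Sgk1 was at 62.9 ± 6.73 FPKM in the NAc against 19.0 ± 1.91 after saline (difference 1.68, adjusted p = 3.75e-10). Ketamine raised 6 in the NAc (1.97%) and 7 against its own set (0.967%). In the PFCx it raised none in limma (0.0162%), with 11 at an unadjusted p under 0.05, and 1 against its own set (1.51%). After ketamine Ddit4 in the NAc was at 3.97 ± 0.585 FPKM against 3.8 ± 0.772 after saline. Risperidone raised 10 in NAc (0.729%) and 9 in PFCx (0.51%), and 6 and 5 against its own set. Haloperidol raised 10 (0.721%) and 4 (0.162%), and 5 and 0 against its own set, with 16 at an unadjusted p under 0.05 in the latter. Methamphetamine raised 4 (0.194%) and 3 (0.351%), and 1 and 2 against its own set. After venlafaxine none was called in limma against either control, with 5 at an unadjusted p under 0.05 in NAc and 2 in PFCx against the 8 saline libraries. The median difference of the 20 genes was -0.07 in NAc and 0.06 in PFCx after venlafaxine, and 0.44 and 0.45 after risperidone.

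Of 12 receptor partners and steroid enzymes none passed the F test at 0.0001 in either tissue, with 6 at an unadjusted p under 0.05 in NAc and 1 in PFCx. In the NAc the smallest adjusted p belonged to Stip1 (6.91e-04), a co-chaperone, Hsd11b1 (0.00185), which regenerates active corticosteroid, the chaperone Hsp90ab1 (0.00478) and Hsd11b2 (0.0147), which inactivates corticosteroid. In the PFCx it was Hsp90ab1 (0.221), Ncoa2 (0.317), Stip1 (0.33) and Hspa8 (0.454). In single drugs 2 pairs were called in the NAc, both after venlafaxine, Hsd11b1 higher (1.54 ± 0.253 FPKM against 0.826 ± 0.219) and Stip1 lower (11.5 ± 1.53 against 16.3 ± 2.71). Against the own saline set none of the 72 pairs of a tissue was called in limma.

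The genes whose levels ran most like Fkbp5 over the 64 libraries, after the mean of each tissue and sample set was subtracted, were Ucp2 (Pearson r = 0.769), Slc2a1 (0.729) and Tsc22d3 (0.709), among 14501 genes. For Tsc22d3 they were Dio2 (0.80), Irs2 (0.772) and Slc2a1 (0.770). Nr3c1 had an r of -0.301 with Fkbp5. These values are a description over libraries that share treatments, and no p is given for them.

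The last comparison asked whether members varied together within groups of the same treatment. After the means of the 8 groups of a tissue were subtracted, 32 of the 45 pairs of members in the NAc had a positive r over 32 libraries, with a median r of 0.170, and 23 of the 45 in the PFCx, with a median r of 0.0299. The 1 pair that passed Benjamini-Hochberg adjustment in a permutation test with 100000 permutations was Nr3c1 with Pdk4 in the PFCx (Pearson r = -0.645, permutation p = 2.5e-04, adjusted p = 0.0225). Its Spearman rho was -0.614 with a permutation p of 0.00113 and an adjusted p of 0.102. Without the 2 libraries farthest from the median of Nr3c1, r was -0.584, and within sample set I and sample set II it was -0.429 and -0.754. The Pdk4 values in the PFCx rest on little sequence, a median of 3.92 aligned kilobases per library and 1.58 in the lowest.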

How the data were processed

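RNA was depleted of ribosomal RNA (RiboMinus), made into libraries with the Ion Total RNA-seq kit v2 and sequenced on Ion PI chips as single-end reads. Per the submitters' notes and the study's methods, the authors aligned the reads to GRCm38 (mm10) with TopHat2 2.0.1 and Tmap and quantified Ensembl transcripts with Cufflinks 2.2.1, and they deposited, for each library and transcript, the FPKM and the read coverage. The deposited coverage served only to estimate depth, by its ratio to FPKM in transcripts with 2000 bases or more and 5 FPKM or more. Multiplied by transcript length and summed, it also gave the aligned sequence behind a member.

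FPKM were summed per gene and transformed to log2(FPKM + 1), a scale that understates the change of low genes. Tested were the 37034 genes and 86331 transcripts whose mean FPKM was 0.1 or more in the NAc or in the PFCx. They were fitted with limma 3.58.1 in R 4.3.3, by tissue, with Benjamini-Hochberg adjustment over all of them. The tests were the F statistic over 6 drugs (adjusted p under 0.0001), each drug against 8 saline libraries or its own saline set (under 0.05), the saline sets, the tissues after saline, and drug by tissue. Intervals are 95%. Single values were also compared by two-sided exact permutation tests, whose smallest p is 0.00202 for 4 against 8 and 0.0286 for 4 against 4. Other steps used Python 3.11.15, numpy 2.4.6, scipy 1.17.1, pandas 2.3.3 and matplotlib 3.10.9.

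The steps were tested on simulated data with normal noise, in which 200 of 37034 genes were raised after mianserin. The F test called 176 of them in NAc and 183 in PFCx and 0 others. The contrast of mianserin with saline called 195 and 197 of them with 8 and 13 others. The simulated rise was larger than any drug difference of a member given here, and no difference between saline sets was simulated. The share of smaller differences that would be called is therefore not known from it. Members and lists were chosen with earlier results of these data known. All 10 members are described. Of the transcripts, those past the F threshold, the most abundant of a gene and the 1 with the lowest drug p were named, with the 6 responsive genes and 4 partners of lowest F p per tissue and the 3 genes most like Fkbp5 and Tsc22d3 (mean FPKM of at least 1). The ketamine with mianserin and risperidone with haloperidol contrasts, the transcript ENSMUST00000112996 and the examples by drug were chosen after the values were seen. The alternatives were a pseudocount of 0.1, a mean FPKM of at least 1, no filter, rescaling to the 75th percentile, limma with a trend, an ordinary statistic, each saline set alone, a replicate block and leaving out each library. The authors' own list of changed transcripts was used only to count how many listed genes it holds. Some listed genes are not reported here, and the lists were counted and summed without them.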

Additional observations from a re-analysis of the deposited data

Results flagged for a closer look

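Among 180 groups of 4 or 8 libraries of 1 member, 9 (5%) held a library farther from the others than Dixon's 95% critical value allows, and chance gives about 1 in 20. In the NAc, Nr3c1 was 10.59 FPKM in ketamine replicate 4 against 12.25 to 12.35 in the other 3 libraries, and 11.01 in venlafaxine replicate 3 against 12.45 to 12.49. Mt1 was 22.17 FPKM in saline set I replicate 2 against 29.07 to 30.11, Plin4 was 0.7275 in venlafaxine replicate 3 against 0.83 to 0.8504, and Sult1a1 was 2.928 in methamphetamine replicate 3 against 1.632 to 1.795. In the PFCx, Errfi1 was 2.805 FPKM in venlafaxine replicate 4 against 3.253 to 3.346 and 2.435 in saline set II replicate 2 against 3.089 to 3.473 in the other 7 saline libraries. Pdk4 in PFCx saline set II replicate 1 was 1.871 FPKM, against 1.052 to 1.118 in the rest of its set and 0.7598 to 1.127 in the other 7 saline libraries.

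The drug effect differed between the tissues, by limma's interaction F test against the 8 saline libraries, for Plin4 (adjusted p = 0.009521) and Zbtb16 (0.00984). Haloperidol gave the largest NAc difference of both, 0.50 and 0.73 in log2(FPKM + 1), against 0.16 and 0.37 in the PFCx. Against the own saline sets neither passed.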

How the results depend on the processing

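The cause of the changes below was not tested unless stated. Except for the drug contrasts with the own saline set, the share of all genes called was not counted under the alternatives below. A general change in calls therefore cannot be told apart there from one of the members. With the saline set of the own sample set, the member and drug pairs called in the NAc fell from 19 to 11, with or without a replicate block, those of the responsive genes from 39 to 24, the transcripts with a drug effect from 1 to 0 and the members whose effect differed between tissues from 2 to 0. With saline set I alone, 5 members and 2 transcripts had a drug effect in the NAc, and 2 members and 2 transcripts in the PFCx, and 15 responsive pairs were called in the PFCx in place of 27. With saline set II alone, 2 members and 2 transcripts had one in the PFCx, 17 member pairs and 43 responsive pairs were called there, and 3 members differed between tissues in place of 5. Of the transcripts in the NAc, 0 passed with a pseudocount of 0.1 and 2 with a mean FPKM of at least 1.

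Rescaling to the 75th percentile of the values above 0 shifted NAc sample set II against set I by 1.05 on the log2 scale (0.083 in the PFCx), since set I has fewer transcripts above 0. Under it 6 members and 0 transcripts had a drug effect in the NAc, 9 members differed between the saline sets in NAc and 2 in PFCx, 10 between tissues in drug effect and 3 in saline level, and 0 between ketamine and mianserin in the NAc in place of 1. It reversed Errfi1 after risperidone in the NAc (-0.005), Fkbp5 after haloperidol in the NAc (-0.1293), Mt1 of the saline sets in the NAc (0.3882) and Fkbp5 between tissues (-0.0564). With the 75th percentile of the same genes in all libraries, added after the data were seen, the shifts were 0.10 and 0.066 and no direction changed.

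Leaving out 1 library at a time gave 1 to 2 transcripts with a drug effect in the NAc, 0 to 1 members between the NAc saline sets (0 without NAc saline set II replicate 2) and 1 to 2 between ketamine and mianserin in the NAc (2 without NAc haloperidol replicate 3). The drug effect was called for 3 to 4 members in NAc and 1 in PFCx, with 16 to 21 and 6 to 11 pairs.

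The replicate numbers were not taken to pair the libraries, since some same-numbered libraries of different groups had a correlation below 0.1. After group means were subtracted, same-numbered libraries had a mean correlation of 0.093 in NAc and 0.102 in PFCx, with a lowest value of -0.256 and -0.37. Differently numbered ones had a mean of -0.031 and -0.03, which the subtraction itself lowers. Both same-numbered means were positive, and the reason was not tested. With the replicate block the called pairs were 18 in NAc and 10 in PFCx, against 19 and 8. FPKM carry no counts, so precision rests on the 4 to 8 libraries of a group. The least aligned sequence stood behind Pdk4, with a median of 5.10 kilobases per library in NAc and 3.92 in PFCx, and Sult1a1, with 4.49 and 3.41.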
